A study of Rattus norvegicus with 16 samples.

Results

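Muscle atrophy ubiquitin ligases are enzymes, or the substrate-binding subunits of enzymes, that attach ubiquitin to proteins of the muscle fibre, and 10 of them were followed here: Fbxo32, Fbxo30, Fbxo31, Trim63, Trim54, Trim32, Nedd4, Mdm2, Traf6 and Cblb. They were taken by gene symbol from the deposited table of fragments per gene, which lists 17147 genes. All 10 symbols were found, and all 10 passed the filter on low counts that left 11658 genes for testing. The RNA came from the supraspinatus, the shoulder muscle most often torn in rotator cuff injury, of Sprague Dawley rats. In the operated rats the whole thickness of the supraspinatus was torn on both sides and its nerve, the suprascapular nerve, was cut. Muscle was collected from unoperated controls (0 days) and at 10, 30 and 60 days after surgery, with 4 libraries in each group and 16 in all. Every operated library had both lesions, none of the groups here was sham operated, and the controls are described only as a group at 0 days, so tear, denervation, surgery and the passing of time cannot be told apart. The labels give neither the age nor the sex of the rats and do not say which libraries came from which rat. The p-values below therefore measure the spread between libraries, which may be in part technical.

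Ubiquitin is activated by an E1 enzyme, passed to an E2 enzyme and joined to a target protein by an E3 ligase, and chains of it can send the target to the proteasome. RING-type ligases bring the E2 to the target, HECT-type ligases carry ubiquitin themselves, and F-box proteins hold targets in the SCF complex built on Skp1, Cul1 and Rbx1. Fbxo32 (atrogin-1, also MAFbx) and Trim63 (MuRF1) are the best known atrophy ligases: their transcripts rise in muscle that loses mass after nerve section, unloading, fasting or glucocorticoids, largely through FoxO transcription factors and the glucocorticoid receptor.

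At 10 days Fbxo32, Fbxo30, Fbxo31, Nedd4, Trim63, Mdm2 and Cblb were called higher than in unoperated muscle and Trim32 lower, where 62.7% of all genes tested were called. Fbxo30 changed most of the 10, at 4.94-fold. The call of Cblb did not hold under all alternatives, and scaled by library totals alone Trim32 was called higher (log2 change 0.37). By 30 and 60 days the 10 ligases had gone separate ways. Fbxo32 had dropped below the unoperated level, to 0.359-fold and 0.350-fold of it. Fbxo30 was still 4.69-fold higher at 30 days and 2.45-fold higher at 60 days. Fbxo31 was higher at 10 and 30 days and lower at 60 days, Nedd4 was higher at 10 and 30 days and close to the unoperated level at 60 days, and Mdm2 had its highest level at 60 days. Scaled by library totals alone, Nedd4 was called higher at 60 days (log2 change 0.40). On that scale Mdm2 at 60 days was not called above its level at 30 or 10 days (log2 differences 0.30 and 0.15).

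The regulatory sequence just upstream of 3 ligases is shown first, since these members share a family or a motif while their transcripts moved differently. RefSeq promoters of the GRCr8 assembly, running from 250 bases before the start of the gene to 50 after it, were at hand for 8 of the 10 ligases (not for Fbxo32 or Traf6). They were searched on both strands for GTAAACA (bound by FoxO factors), GAACA and TGTTC separated by any 3 bases (a full glucocorticoid response element) and CANNTG (the E-box bound by MyoD and myogenin), where N is any base, and matches are in capitals below. The Trim63 promoter lies at chr5:151816986-151817285 on the + strand, that of Trim54 at chr6:30978426-30978725 on the - strand and that of Mdm2 at chr7:55200742-55201041 on the - strand.
Trim63: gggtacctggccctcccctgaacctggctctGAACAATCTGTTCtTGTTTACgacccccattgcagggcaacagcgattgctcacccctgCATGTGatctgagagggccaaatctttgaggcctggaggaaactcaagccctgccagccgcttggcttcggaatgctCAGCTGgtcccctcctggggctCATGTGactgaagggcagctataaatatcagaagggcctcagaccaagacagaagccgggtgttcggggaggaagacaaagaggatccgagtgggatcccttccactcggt
Trim54: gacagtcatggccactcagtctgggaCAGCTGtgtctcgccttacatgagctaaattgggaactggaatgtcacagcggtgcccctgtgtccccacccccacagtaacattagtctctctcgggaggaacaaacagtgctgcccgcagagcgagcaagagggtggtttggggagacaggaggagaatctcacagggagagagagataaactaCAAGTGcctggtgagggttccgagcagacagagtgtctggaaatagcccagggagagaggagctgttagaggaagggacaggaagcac
Mdm2: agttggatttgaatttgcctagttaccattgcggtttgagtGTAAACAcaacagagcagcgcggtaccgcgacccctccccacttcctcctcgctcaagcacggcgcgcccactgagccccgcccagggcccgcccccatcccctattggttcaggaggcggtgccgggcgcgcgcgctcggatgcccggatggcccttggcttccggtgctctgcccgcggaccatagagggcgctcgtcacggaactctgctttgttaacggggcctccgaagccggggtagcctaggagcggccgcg
In Trim63 the first capitals are the glucocorticoid element, which begins 219 bases before the start, and the next are the FoxO motif in its reverse form TGTTTAC, at 205 bases before. These are followed by 3 E-boxes, at 160, 83 and 61 bases before the start. Trim54, which encodes a close relative of MuRF1, had 2 E-boxes (224 and 38 bases before the start) and neither of the other motifs. The capitals in Mdm2 mark 1 FoxO motif, 209 bases before the start. None of the 3 motifs was found in this window of Trim32, Fbxo30, Fbxo31, Nedd4 or Cblb. Among 33469 RefSeq promoters of the same length, 3.78% held GTAAACA, 0.0508% (17 promoters) held the glucocorticoid element and 72.1% held CANNTG. The promoters of Trim63 and Trim54 were 57% and 55.3% G or C with 8 and 6 CpG dinucleotides. The other 6 ranged from 60.7% in Trim32 to 77.3% in Fbxo30, above the upper quartile of all promoters (60.3%), and had 21 to 44 CpGs against a median of 7. A match describes these letters and is not evidence of binding.

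Library totals ran from 17.2 to 39.9 M fragments, and the 4 libraries at 60 days (17.2 to 22.4 M) were the shallowest. Values below are CPM, the fragments of a gene scaled to libraries of 1 M fragments after correction by TMM factors, and n = 4 for every mean ± SD. The TMM factors were 0.750 to 0.775 in unoperated muscle and 0.969 to 1.24 in operated muscle. Scaling by library totals alone raised the median change of the genes tested by 0.66, 0.49 and 0.41 (log2, against 0 days) at 10, 30 and 60 days, so every change is given relative to the TMM scale, and values on library totals are given where they end or reverse a call. Markers of the muscle fibre, the labelled tissue, were abundant throughout: the 7 in the table summed to 182106 to 193896 CPM in unoperated muscle and to 52291 to 58732, 85125 to 120896 and 106722 to 132551 CPM at 10, 30 and 60 days. Of these markers 6, 5 and 4 were called lower at the 3 times, and 1 was called higher at each. The fall was not uniform: Mb had a mean of 12818 CPM at 0 days and of 18159, 25772 and 17970 CPM later. The 10 macrophage markers summed to 42.3 to 66.2 CPM at 0 days, 130 to 179 at 10 days, 179 to 225 at 30 days and 148 to 278 at 60 days, and 9, 10 and 10 of them were called higher. The 8 fibroblast markers summed to 509 to 1069, 1030 to 3172, 1593 to 2640 and 1398 to 3065 CPM at the 4 times, and 7, 8 and 8 were called higher. At 60 days 5 of 6 adipocyte markers and 5 of 6 Schwann cell markers were called higher and 0 lower (median log2 changes of 1.61 and 1.32). At 10 days 0 of either list were higher, and 1 and 3 were lower. No marker in the table was at 0 in all libraries of a group. The part of this shift in cell makeup in the results below was not tested. In whole muscle, fewer cells of a type and less RNA per cell cannot be told apart. All 6 genes known to rise in denervated muscle were called higher at all 3 times, with summed levels of 50.3 to 66.8, 1961 to 2734, 1080 to 2302 and 145 to 320 CPM.

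**Figure D1:**
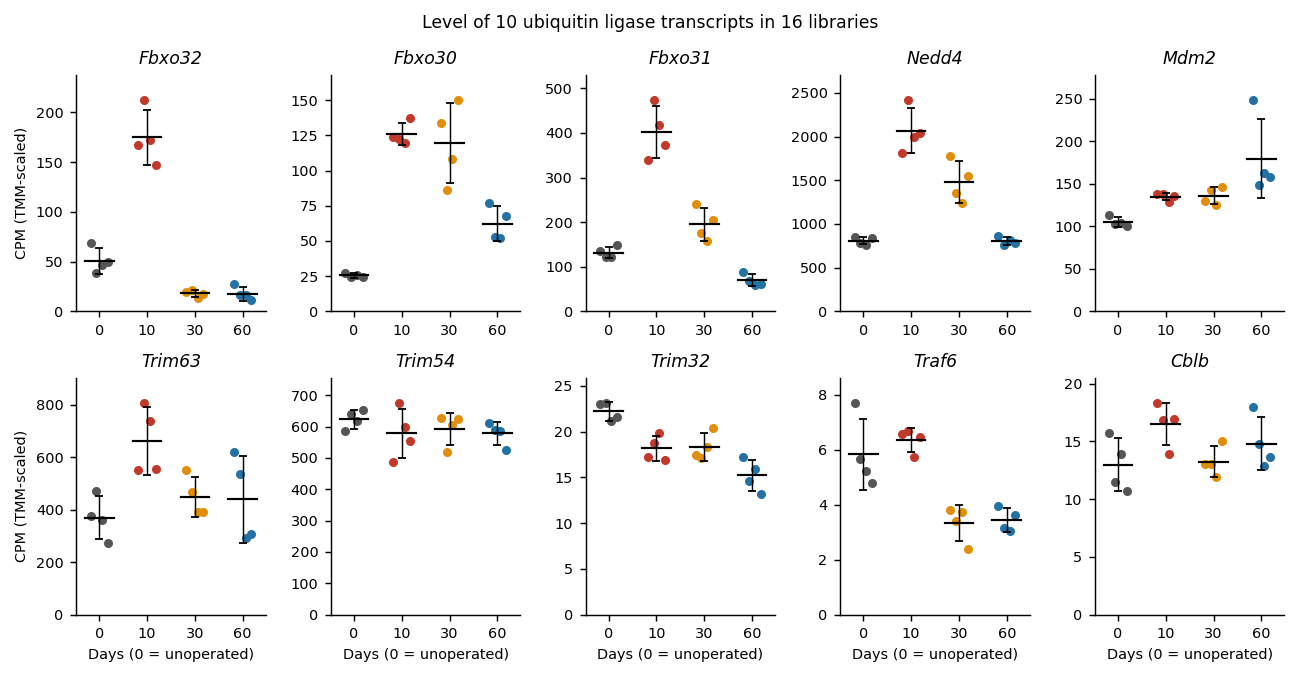
Level of the 10 ligase transcripts in CPM (linear axis from 0) by days after surgery, with 0 for unoperated muscle. Points are single libraries, the wide bar is the mean of 4 and the error bars are 1 SD; Fbxo32 stands at 147 to 212 CPM at 10 days and below 28 CPM in all later libraries.

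Fbxo32, the F-box subunit that recruits targets such as MyoD and the translation factor eIF3f to the SCF complex, changed direction between 10 and 30 days. Its level in the 4 unoperated libraries was 69.0, 38.3, 46.5 and 49.1 CPM. At 10 days it was 167, 212, 172 and 147 CPM. At 30 days it was 19.7, 21.3, 13.9 and 17.5 CPM, and at 60 days 27.6, 16.3, 16.02 and 10.9 CPM. Every library at 10 days lay above all unoperated libraries, and every library at 30 and 60 days lay below them. The log2 fold change from 0 days was 1.79 ± 0.23 (SE) at 10 days (adjusted p = 7.24e-06, edgeR quasi-likelihood test with Benjamini-Hochberg adjustment over all genes tested, as for every adjusted p of a single gene here). It was -1.48 ± 0.24 at 30 days (adjusted p = 6.08e-05) and -1.51 ± 0.24 at 60 days (adjusted p = 7.51e-05). From 10 to 30 days Fbxo32 fell by 3.27 ± 0.25 on the log2 scale (adjusted p = 2.03e-07), which ranked 5 from the bottom among the 11658 genes tested. Between 30 and 60 days the means, 18.1 ± 3.21 and 17.7 ± 7.05 CPM, did not differ beyond their spread (adjusted p = 0.940). The order of the levels was thus 10 days, then 0 days, then 30 and 60 days. On library totals its 3 changes from 0 days were 2.44, -0.98 and -1.12, and all 3 were still called.

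Fbxo30, or MUSA1, is another F-box subunit, known from mouse muscle as a ligase that is induced by nerve section and held down by BMP signalling. The unoperated libraries stood at 27.5, 24.4, 25.9 and 24.2 CPM. At 10 days the values were 124, 123, 120 and 137 CPM, at 30 days 134, 86.5, 108 and 150 CPM, and at 60 days 76.8, 52.6, 52.1 and 68.0 CPM. All 12 operated libraries lay above the unoperated ones. Against 0 days Fbxo30 rose by 2.30 ± 0.16 on the log2 scale at the first time (adjusted p = 4.48e-09), by 2.23 ± 0.16 at the second (adjusted p = 8.28e-09) and by 1.29 ± 0.15 at the last (adjusted p = 3.49e-06). The levels at 10 and 30 days did not differ beyond their spread (log2 difference -0.07, adjusted p = 0.698). From 30 to 60 days Fbxo30 fell by 0.94 ± 0.15 (adjusted p = 0.000453), with no overlap between those groups.

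Fbxo31 encodes an F-box protein known for directing cyclin D1 to destruction after DNA damage. Its transcript stood at 134, 122, 122 and 148 CPM in unoperated muscle and at 339, 474, 419 and 374 CPM at 10 days. It was at 241, 176, 158 and 205 CPM at 30 days and at 88.6, 69.0, 59.1 and 62.1 CPM at 60 days. No group overlapped another, in the order 10, 30, 0 and 60 days. The log2 fold change from 0 days was 1.61 ± 0.15 at 10 days (adjusted p = 1.01e-07), 0.57 ± 0.14 at 30 days (adjusted p = 0.00269) and -0.92 ± 0.15 at 60 days (adjusted p = 6.59e-05). From 10 to 60 days Fbxo31 fell by 2.52 ± 0.15 on the log2 scale (adjusted p = 5.48e-09). Scaled by library totals, Fbxo31 changed by -0.51 from 0 to 60 days and was still called. Fbxo31 and Fbxo32 thus both rose at 10 days, while at 30 days Fbxo31 was above and Fbxo32 below the unoperated level.

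Trim63, or MuRF1, is a RING ligase of the sarcomere that acts on myosin heavy chains and other thick filament proteins. Unoperated muscle gave 376, 471, 361 and 271 CPM, and the 10-day libraries gave 553, 807, 737 and 555 CPM. The 30-day libraries gave 550, 467, 390 and 390 CPM, and those at 60 days 620, 538, 290 and 308 CPM. The 10-day group lay above all unoperated libraries, while the 30-day and 60-day groups overlapped them. At 60 days the libraries split into a higher and a lower pair. Trim63 rose by 0.84 ± 0.24 on the log2 scale at 10 days (1.79-fold, adjusted p = 0.00580). Its log2 difference from 0 days was 0.28 ± 0.24 at 30 days (adjusted p = 0.309) and 0.25 ± 0.24 at 60 days (adjusted p = 0.381), but with library totals these were 0.78 and 0.65, both called. The log2 difference between 30 and 10 days, -0.56 ± 0.24, missed the threshold (adjusted p = 0.0619), although those groups did not overlap. It was called with library totals (adjusted p = 0.0204), DESeq2 (adjusted p = 0.0399) and a replicate block (adjusted p = 0.0170). The same holds when only those 2 groups were fitted (adjusted p = 0.0115) and in 4 of the 16 fits that leave out a library. From 10 to 60 days Trim63 fell by 0.59 ± 0.24 (adjusted p = 0.0395). That call was lost when replicate 1 or 3 at 0 days, 2 or 3 at 10 days, or 3 or 4 at 60 days was left out, with log2 differences of -0.81 to -0.44 over all 16 such fits. It was also lost with RLE factors (adjusted p = 0.0538), with upper-quartile factors (adjusted p = 0.0587) and when only those 2 groups were fitted (adjusted p = 0.0718).

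Trim54 (MuRF3) is a close relative of MuRF1 that binds microtubules and the Z-disc and acts with it on myosin. It gave 585, 640, 617 and 652 CPM at 0 days, 488, 675, 597 and 554 CPM at 10 days, 627, 519, 605 and 624 CPM at 30 days, and 611, 590, 585 and 527 CPM at 60 days. The 4 groups overlapped throughout. Its log2 differences from 0 days were -0.11 ± 0.096, -0.07 ± 0.096 and -0.11 ± 0.096 at 10, 30 and 60 days, with adjusted p-values of 0.340, 0.538 and 0.344. This holds on the TMM scale only: with library totals the values were 0.55, 0.43 and 0.30, all called higher.

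Trim32, a ligase of thin filament proteins and desmin whose mutation causes a limb-girdle muscular dystrophy, was lower in operated muscle. The unoperated libraries had 23.1, 23.1, 21.1 and 21.6 CPM. At 10 days they had 17.2, 18.8, 19.8 and 16.9 CPM, at 30 days 17.4, 17.1, 18.3 and 20.4 CPM, and at 60 days 17.2, 14.6, 15.9 and 13.2 CPM. Each operated library lay below every unoperated one. Trim32 fell at each time, with log2 changes of -0.29 ± 0.090 (adjusted p = 0.00989), -0.28 ± 0.090 (adjusted p = 0.0121) and -0.55 ± 0.092 (adjusted p = 9.70e-05). These small changes rest on the scale. With library totals they became 0.37 and 0.21 at 10 and 30 days, both called higher, and -0.14 at 60 days, not called. With upper-quartile factors the change at 30 days was -0.16 and not called (adjusted p = 0.108). Between 10 and 30 days the log2 difference was 0.01 (adjusted p = 0.940). The 60-day level was lower than at 30 days (log2 difference -0.27 ± 0.091, adjusted p = 0.0455) and than at 10 days (-0.26 ± 0.091, adjusted p = 0.0224). The first of these calls was lost in 12 of the 16 fits that leave out a library, namely without any 1 of the 0-day libraries, replicate 1 or 2 at 10 days, 1, 3 or 4 at 30 days, or 2, 3 or 4 at 60 days, with values of -0.33 to -0.19. The second was lost without replicate 2 or 3 at 10 days or 2 or 4 at 60 days, with values of -0.32 to -0.17. RLE factors also ended the first (adjusted p = 0.0697) and upper-quartile factors the second (adjusted p = 0.0889). The first was lost as well with DESeq2 (adjusted p = 0.0571), limma-voom (adjusted p = 0.0557), no low-count filter (adjusted p = 0.0545) and a replicate block (adjusted p = 0.0673). Fits of only the 2 groups compared ended both (adjusted p = 0.124 and 0.0624).

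Nedd4, a HECT-type ligase that acts on membrane proteins and on Notch1 in denervated muscle, rose and returned. Levels were 850, 783, 763 and 835 CPM at 0 days and 1808, 2420, 1996 and 2045 CPM at 10 days. They were 1779, 1350, 1235 and 1545 CPM at 30 days and 867, 754, 817 and 782 CPM at 60 days. The 10-day group lay above the 30-day group, which lay above both others, and the groups at 0 and 60 days overlapped. Nedd4 rose by 1.36 ± 0.11 on the log2 scale at 10 days (2.56-fold, adjusted p = 3.31e-08) and by 0.87 ± 0.11 at 30 days (1.83-fold, adjusted p = 5.44e-06). The means at 0 and 60 days were 808 ± 41.5 and 805 ± 48.6 CPM, and this difference was within the spread between libraries (adjusted p = 0.976). On library totals the 60-day level was higher than at 0 days by 0.40 on the log2 scale (adjusted p = 0.00922). From 10 to 30 days Nedd4 fell by 0.48 ± 0.11 (adjusted p = 0.00207), and from 30 to 60 days by 0.88 ± 0.11 (adjusted p = 8.16e-05).

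Mdm2, a RING ligase best known from the control of the cell cycle, was the only one of the 10 called higher at 60 days than at both earlier times after surgery on the TMM scale. Unoperated muscle had 114, 103, 104 and 100.3 CPM. Levels were 138, 138, 129 and 135 CPM at 10 days, 130.3, 143, 126 and 146 CPM at 30 days, and 249, 148, 163 and 158 CPM at 60 days. All operated libraries lay above the unoperated ones, and replicate 1 at 60 days stood far above its group. Mdm2 rose by 0.36 ± 0.12 at 10 days (adjusted p = 0.0175), 0.37 ± 0.12 at 30 days (adjusted p = 0.0143) and 0.77 ± 0.12 at 60 days (adjusted p = 6.39e-05), on the log2 scale. Without replicate 1 at 60 days, the last of these was 0.57 (adjusted p = 2.89e-06). The 10-day and 30-day levels did not differ beyond their spread (adjusted p = 0.945). The 60-day level was 0.40 ± 0.12 above that at 30 days (adjusted p = 0.0282) and 0.41 ± 0.12 above that at 10 days (adjusted p = 0.00844). Without that replicate these were 0.20 (adjusted p = 0.0382) and 0.21 (adjusted p = 0.0130). The rise from 30 to 60 days was not called without replicate 1 at 30 days (adjusted p = 0.0745) or without replicate 3 at 30 days (adjusted p = 0.0673). It was also lost when only those 2 groups were fitted (adjusted p = 0.115) and with the letter of the sample titles as covariate (adjusted p = 0.0512). With library totals neither of these late differences was called, at 0.30 and 0.15 on the log2 scale.

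Traf6 is a RING ligase that builds ubiquitin chains used in signalling to NF-kB. Its transcript gave few fragments, with a minimum of 52 in replicate 3 at 60 days, which is 3.03 CPM by library total with a 95% Wilson interval of 2.31 to 3.97 for counting error only. The values were 7.70, 5.65, 5.22 and 4.79 CPM at 0 days, 6.59, 6.67, 5.73 and 6.45 CPM at 10 days, 3.79, 3.42, 3.72 and 2.37 CPM at 30 days, and 3.97, 3.14, 3.04 and 3.64 CPM at 60 days. The 10-day group overlapped the unoperated one, and both later groups lay below the other libraries. The log2 difference from 0 days was 0.13 ± 0.16 at 10 days (adjusted p = 0.511). Traf6 fell by 0.80 ± 0.17 at 30 days (adjusted p = 0.000577) and by 0.75 ± 0.17 at 60 days (adjusted p = 0.00147), on the log2 scale. Library totals gave 0.78 (called higher), -0.31 and -0.34, the later ones not called. The fall from 10 to 30 days, by 0.93 ± 0.17, was called (adjusted p = 0.000252).

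Cblb, a RING ligase reported to mark the insulin receptor substrate IRS1 in unloaded muscle, overlapped between all groups. It had 15.7, 11.5, 13.9 and 10.7 CPM at 0 days and 18.3, 16.8, 13.9 and 16.97 CPM at 10 days. It had 13.0, 13.0, 11.9 and 15.0 CPM at 30 days and 17.98, 14.8, 12.9 and 13.6 CPM at 60 days. The rise at 10 days was 0.35 ± 0.13 on the log2 scale (adjusted p = 0.0294). It was lost without replicate 2 or 4 at 0 days or without replicate 1, 2 or 4 at 10 days, where the adjusted p reached 0.0960, and with RLE factors (adjusted p = 0.0526). The log2 differences at 30 and 60 days were 0.03 (adjusted p = 0.842) and 0.20 (adjusted p = 0.221) on the TMM scale, and 0.53 and 0.60, both called, with library totals.

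Counted together against 0 days, 7 of the 10 ligases were called higher and 1 lower at 10 days, where 62.7% of all genes tested were called (33.3% higher, 29.4% lower). At 30 days 4 were higher and 3 lower, with 64.6% of all genes called (33.7% higher, 30.9% lower). At 60 days 2 were higher and 4 lower, with 59.0% of all genes called (29.9% higher, 29.1% lower). The 4 operated libraries did not overlap the unoperated ones for 7, 7 and 6 of the ligases at the 3 times, beside 59.0%, 60.2% and 50.0% of all genes. The counts of ligases called, 8, 7 and 6 of 10, are thus near the share among all genes tested. What changed with time was their direction, and the median log2 fold change of the 10 was 0.60, 0.16 and -0.056 beside 0.061, 0.046 and 0.040 over all genes tested. On library totals this became 10 higher and 0 lower, 8 and 1, and 6 and 2. On that scale 87.4%, 84.1% and 82.7% of all genes called were higher, against 53.1%, 52.2% and 50.7% on the TMM scale, so the ligases shared this shift with the other genes. Those 3 comparisons share the unoperated libraries. In the test of any difference among the 4 groups, 8 of the 10 were called, beside 84.7% of all genes. The exceptions were Trim54 (adjusted p = 0.654) and Cblb (adjusted p = 0.0670).

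**Figure D2:**
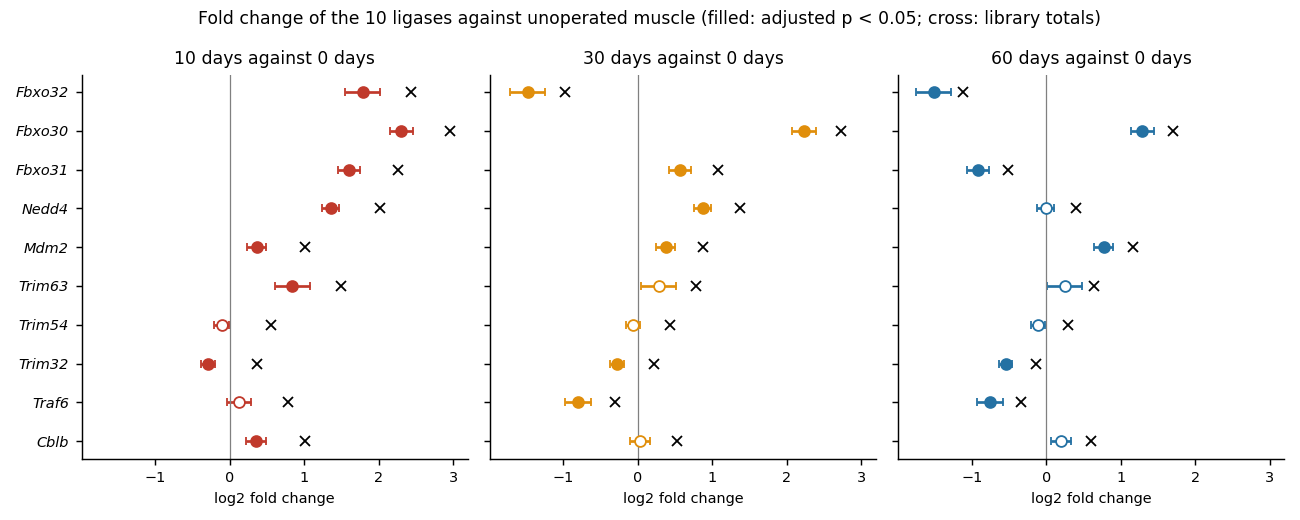
Log2 fold change of the 10 ligases against unoperated muscle at 10, 30 and 60 days on the TMM scale, with bars of 1 SE and filled circles for adjusted p under 0.05. Crosses give the same values with library totals; Fbxo32 and Fbxo30 lie on the same side of 0 at 10 days and on opposite sides at 30 and 60 days on both scales.

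Among operated muscles, falls outnumbered rises in all 3 comparisons. From 10 to 30 days 4 ligases fell (Fbxo32, Fbxo31, Traf6 and Nedd4) and none was called higher, where 47.3% of all genes were called (23.0% higher, 24.3% lower). From 30 to 60 days Fbxo31, Fbxo30, Nedd4 and Trim32 fell and Mdm2 rose, where 22.6% of all genes were called (12.4% lower, 10.3% higher). From 10 to 60 days 7 fell and Mdm2 rose, where 61.1% were called (29.1% higher, 31.9% lower). Groups did not overlap for 5, 4 and 6 ligases in these comparisons, beside 43.8%, 20.1% and 51.2% of all genes. On library totals there were 0 higher and 6 lower, 0 and 4, and 0 and 9, where 27.6%, 26.3% and 28.0% of all genes called were higher, against 48.6%, 45.3% and 47.7% on the TMM scale. Fbxo32 and Traf6 thus made their fall before 30 days, Fbxo30 was called lower only after 30 days, and Fbxo31 and Nedd4 fell in both intervals.

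Ratios of fragments of a pair of ligases within a library do not depend on library size or scaling, and gene length cancels in a comparison between groups. The 3 ratios chosen were compared with 0 days at 3 times by two-sided exact permutation tests, 9 tests in all. With 4 libraries against 4 the smallest p possible is 0.0286, which became 0.0429 after adjustment over the 9. The log2 ratio of Fbxo32 to Trim63 averaged -2.87 ± 0.55 (SD) in unoperated muscle, -1.92 ± 0.15 in the 10-day group, -4.64 ± 0.20 in the 30-day group and -4.63 ± 0.38 in the 60-day group. Single unoperated libraries gave -2.45, -3.62, -2.96 and -2.46, those at 10 days -1.73, -1.93, -2.10 and -1.92. The 30-day libraries gave -4.80, -4.45, -4.81 and -4.48, and the 60-day libraries -4.49, -5.04, -4.18 and -4.82. Fbxo32 was therefore higher against Trim63 in each 10-day library and lower in each later library than in any unoperated one. The differences were 0.96, -1.76 and -1.76, each at the smallest p possible (exact p = 0.0286, adjusted p = 0.0429).

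Fbxo30 and Fbxo32, both F-box subunits of the SCF complex, parted after 10 days. Their log2 ratio was -0.96 ± 0.29 at 0 days and -0.46 ± 0.29 at 10 days, a difference of 0.50 that missed the threshold (exact p = 0.0571, adjusted p = 0.0735). It was 2.71 ± 0.48 at 30 days and 1.88 ± 0.52 at 60 days. Relative to Fbxo32, Fbxo30 was 12.7-fold higher at 30 days and 7.14-fold higher at 60 days than in unoperated muscle, with no overlap of libraries (exact p = 0.0286, adjusted p = 0.0429 for both). The log2 ratio of Trim54 to Trim63 was 0.78 ± 0.35 at 0 days and -0.19 ± 0.13 at 10 days, a difference of -0.97 with no overlap (exact p = 0.0286, adjusted p = 0.0429). At 30 and 60 days it was 0.41 ± 0.28 and 0.47 ± 0.50, and its differences from 0 days, -0.37 and -0.30, were within the spread (exact p = 0.171 and 0.371, adjusted p = 0.193 and 0.371). No difference changed sign when a library was left out, but adjusted p-values passed 0.05 (up to 0.129, exact permutation) without replicate 1, 2 or 4 at 10 days for the called 10-day differences, without 1 or 3 at 30 days for the 30-day ones and without 2 or 4 at 60 days for the 60-day ones. For Fbxo32 to Trim63 the exact p itself rose in these fits, to at most 0.0857, 0.0571 and 0.0571 at 10, 30 and 60 days. For the called differences of the other ratios the exact p stayed at 0.0286 whichever library was left out. Their adjusted p of 0.0514 arose through the joint adjustment, where Fbxo32 to Trim63 had lost the smallest p.

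**Figure D3:**
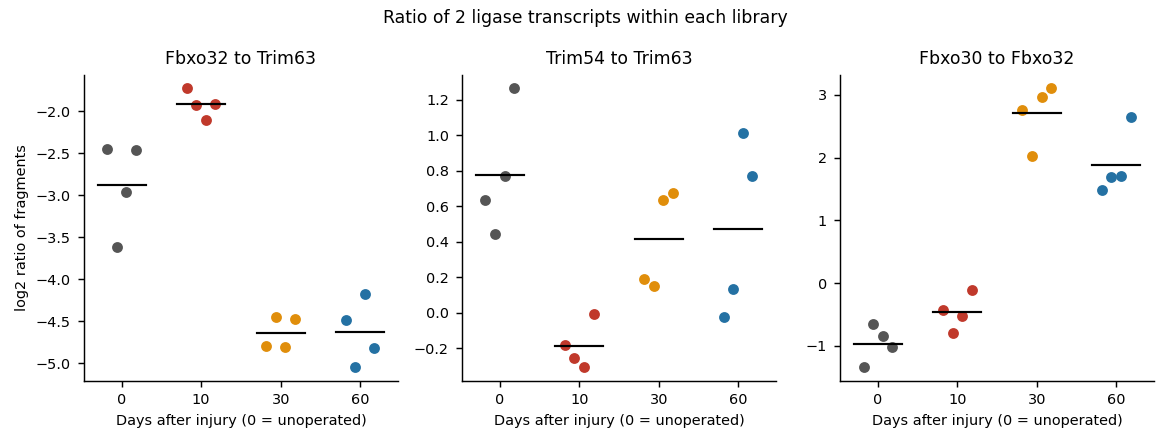
Log2 ratio of fragments of a pair of ligases in each of the 16 libraries by days after surgery, with the group mean as a bar; the axes do not start at 0. The ratio of Fbxo30 to Fbxo32 was below 0 in all 8 libraries at 0 and 10 days and above 1.4 in all 8 later libraries.

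The rest of the ubiquitin system was read from lists of genes by role, here and in the next paragraphs. Beside the counts of each list, 33.3% of all genes tested were called higher and 29.4% lower at 10 days. These shares were 33.7% and 30.9% at 30 days, and 29.9% and 29.1% at 60 days. With library totals, 87.4%, 84.1% and 82.7% of all genes called were higher at the 3 times. Of 30 other ligases known in muscle, 25 were tested, and 8 were higher and 8 lower at 10 days, 6 and 10 at 30 days, and 4 and 11 at 60 days. Trim55 (MuRF2), the third member of the MuRF family, rose with Trim63 at 10 days, by 1.75 ± 0.13 on the log2 scale (adjusted p = 7.48e-09). Its mean went from 117 ± 8.82 CPM at 0 days to 395 ± 53.1 at 10 days, 189 ± 34.0 at 30 days and 125 ± 15.996 at 60 days. Mdm4, a relative and binding partner of Mdm2, was higher by 0.65 at 10 days (adjusted p = 0.000430), 0.94 at 30 days (adjusted p = 1.21e-05) and 1.16 at 60 days (adjusted p = 2.27e-06), on the log2 scale. Asb2, which holds targets for a cullin ligase, fell at all 3 times (log2 changes of -1.57, -2.41 and -1.74), as did the HECT ligase Wwp1 (-1.34, -1.43 and -1.28). Library totals gave splits of 18 higher and 4 lower, 13 and 5, and 10 and 6.

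The core genes of the SCF complex, with which F-box subunits work, changed in both directions on the TMM scale. Of the 9 SCF core genes tested, 2 were higher and 3 lower at 10 days, 2 and 4 at 30 days, and 0 and 3 at 60 days. Cul1, the scaffold, fell at each time (log2 changes of -0.25, -0.64 and -0.55), as did Cops5, of the complex that removes Nedd8 from cullins (-0.61, -0.67 and -0.48). Cand1, which exchanges F-box subunits on Cul1, rose by 0.92 and 0.72 at 10 and 30 days. On library totals the core splits were 8 and 0, 7 and 2, and 7 and 1, and Cul1 at 10 days was called higher (0.41). On that scale the falls of Cops5 at 10 and 60 days were not called (0.049 and -0.072). Of the 24 E1 and E2 genes tested, 5 were higher and 12 lower at 10 days, 4 and 14 at 30 days, and 1 and 14 at 60 days, which became 21 and 2, 12 and 4, and 12 and 4 with library totals. Among the genes that encode ubiquitin, whose near-identical repeats make the counting uncertain, Rps27a rose by 0.61, 0.66 and 0.30, while Ubb fell at 10 and 30 days (-0.30 and -0.47). On library totals Ubb was called higher at 10 days (0.36) and was not called at 30 days (0.022).

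Deubiquitinases, which remove ubiquitin, had more falls than rises at each time on the TMM scale: 7 higher and 9 lower of 21 tested at 10 days, 5 and 14 at 30 days, and 4 and 14 at 60 days. Scaling by library totals made these 14 and 1, 9 and 9, and 7 and 7. Uchl1, known mainly from neurons, rose by 3.10, 2.87 and 2.50 on the log2 scale, from 1.197 ± 0.118 CPM at 0 days to 10.3 ± 0.893 at 10 days. Usp15 fell, with log2 changes of -0.81, -1.74 and -1.70, and so did Usp2, with -1.36, -1.62 and -0.96. On library totals the fall of Usp15 at 10 days was -0.15 and not called (adjusted p = 0.257).

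**Figure D4:**
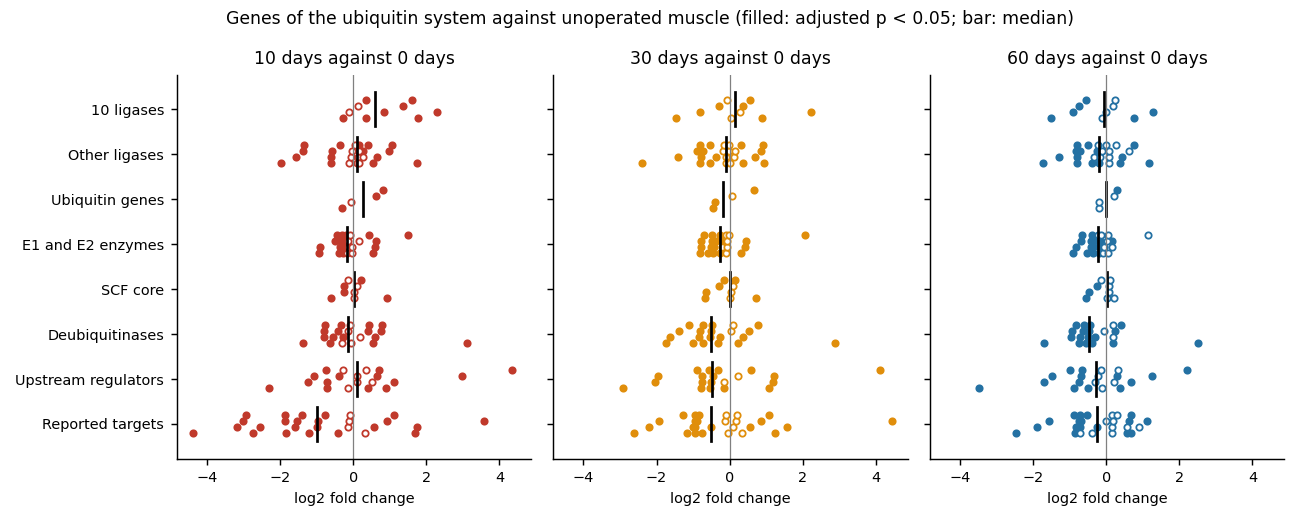
Log2 fold change on the TMM scale of each gene tested in the 10 ligases and 7 other lists, at 10, 30 and 60 days against unoperated muscle, with filled points for adjusted p under 0.05 and a bar at the list's median. The median of the 10 ligases is 0.60 at 10 days and -0.056 at 60 days, and that of the reported targets is -0.99 and -0.26.

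Of 20 regulators known to act on these ligases, 7 were higher and 7 lower at 10 days, 5 and 13 at 30 days, and 5 and 9 at 60 days, and 13 and 2, 8 and 5, and 8 and 6 with library totals. Myog (myogenin), a direct activator of Fbxo32 and Trim63 after denervation, rose by 4.35 ± 0.16, 4.11 ± 0.16 and 2.22 ± 0.15 on the log2 scale. Its mean was 411 ± 70.4 CPM at 30 days, when Fbxo32 was below the unoperated level. The part of myogenin in the levels of these ligases was not tested. Hdac4, which acts upstream of myogenin, rose by 2.98 ± 0.20 at 10 days and 1.19 ± 0.19 at 30 days. The FoxO gene Foxo4 fell at all 3 times (-0.71 ± 0.12, -2.05 ± 0.12 and -1.49 ± 0.12), but at 10 days it was not called on library totals (-0.056). Foxo1 and Foxo3, named after their values were seen, had log2 differences of 0.35 (adjusted p = 0.195) and 0.11 (adjusted p = 0.641) at 10 days and of -0.77 and -0.76 at 30 days, both called lower (adjusted p = 0.0102 and 0.00319), calls that were lost with library totals. At 60 days Foxo1 was not called, with a mean of 8.51 ± 3.75 CPM against 9.99 ± 2.44 CPM at 0 days. Foxo3 was called lower at 60 days (5.32 ± 1.89 CPM against 8.58 ± 0.863 CPM), a call also lost with library totals (log2 change -0.28). Mstn (myostatin), a restraint on muscle growth, fell at each time, with log2 changes of -2.31, -2.91 and -3.48.

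The 27 reported targets of the ligases were 6 higher and 17 lower at 10 days, 6 and 14 at 30 days, and 5 and 12 at 60 days. Library totals made these 11 and 14, 12 and 11, and 12 and 8. Mybpc2, the fast myosin-binding protein, fell at all 3 times (log2 changes of -4.38, -2.61 and -1.56). So did Actn3, the fast alpha-actinin (-3.18, -2.21 and -1.89), and Myh4, the IIb myosin (-1.86, -1.92 and -2.47). Actc1, the cardiac actin also made in developing muscle, rose by 3.58 and 4.43 at 10 and 30 days, and Myod1, a target of atrogin-1, by 1.74 and 1.58. These are transcript levels, and the ligases act on the proteins.

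Over the 16 libraries, the genes whose log2 CPM followed Fbxo32 most closely among 8223 ranked were Ubr4, Entpd5 and Clip1 (Pearson r = 0.98 for each). Those nearest to Trim63 were Scaf4 (r = 0.91), Far1 (r = 0.87) and Myo10 (r = 0.87). These values are a description, since the 16 libraries fall into 4 groups that share the changes with time. Ubr4, a ligase that recognises N-terminal residues, rose by 0.42 ± 0.084 on the log2 scale at 10 days and fell at 30 and 60 days (-0.39 ± 0.084 and -0.38 ± 0.084), a smaller range than that of Fbxo32. With library totals its later values were 0.11 and 0.023, not called. Entpd5 was higher by 1.74 ± 0.24 at 10 days and lower at the later times (-0.85 ± 0.24 and -1.24 ± 0.25), though on library totals the 30-day value was -0.36 and not called (adjusted p = 0.175). Among the 10 ligases the highest correlation over the 16 libraries was that of Fbxo31 with Nedd4 (r = 0.92), and that of Fbxo32 with Trim63 was 0.56.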

How the data were processed

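Messenger RNA libraries of 16 supraspinatus muscle samples were made with the miRNeasy and TruSeq mRNA kits, per the labels' protocols. The submitters' processing notes name bcl2fastq 1.8.4, FastQC, TopHat2 2.0.9, Bowtie2 2.1.0.0, Cufflinks, Cuffdiff 2.1.1 and the build rn5; the annotation and strand setting are not given in the sources used here. The authors deposited estimated counts of fragments per gene (a fraction in 233 of 17147 genes), so overlapping or near-identical genes are uncertain. Here they were rounded to whole numbers, genes were filtered with filterByExpr (11658 kept, 5489 not), scaled by TMM and fitted with edgeR 4.0.16 in R 4.3.3 (quasi-likelihood, robust, 4 groups, no covariate). A gene was called at a Benjamini-Hochberg adjusted p under 0.05 over all genes tested. SE is the log2 fold change over the root of F. The fit was tested on simulated data. Library totals were 17.2 to 39.9 M fragments, and 3 fragments correspond to 0.0752 to 0.175 CPM. Alternatives were RLE, upper-quartile and no scaling factors, DESeq2 1.42.0, limma 3.58.1 voom, other filters, a title letter or replicate block, thinning, fits of 2 groups and leaving out each library.

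The 10 ligases and all lists were chosen with earlier results of these data known. From each other list, the genes with the 2 largest rises and 2 largest falls among those called at a time could be named, and for Fbxo32 and Trim63 the 3 genes with the highest correlation of log2 CPM (prior count 2, mean of at least 5 CPM). Fbxo40, Fbxw7, Cbl, Huwe1, Ube2e1, Ube2o, Ube2r2, Tnfaip3, Otud1 and the markers Ttn and Cd79a were not analysed here, and some other genes of the lists are not reported here. For the marker lists whose sums are not given above, the summed CPM at 0, 10, 30 and 60 days follow. Adipocyte markers (6 genes) had 196 to 247, 88.5 to 157, 148 to 199 and 238 to 455. Endothelial markers (6) had 283 to 325, 157 to 232, 237 to 261 and 253 to 378. Schwann markers (6) had 64.7 to 99.3, 25.2 to 48.1, 54.8 to 88.9 and 108 to 239. Satellite cell markers (4) had 33.3 to 47.6, 25.0 to 37.5, 32.2 to 40.4 and 30.5 to 39.1. Lymphocyte markers (5) had 0.0562 to 0.937, 1.38 to 2.08, 2.20 to 2.75 and 0.617 to 2.62.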

Additional observations from a re-analysis of the deposited data

Results flagged for a closer look

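In 1 of 52 groups of 4 libraries checked, a library stood apart by Dixon's criterion, where chance gives about 1 in 20: Mdm2 was at 249 CPM in replicate 1 at 60 days, with a gap ratio of 0.858, above the 95% critical value for 4 libraries, and the other 3 libraries were at 148 to 163 CPM. The same library had the highest CPM of its group for every ligase, such as Fbxo32 (27.6, against 10.9 to 16.3) and Fbxo31 (88.6, against 59.1 to 69.0). Without it, 58 of the 60 log2 fold changes of the ligases kept their call and 2 gained one. Over all genes tested, 3381 were then called between 30 and 60 days, against 2636 with it.

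Changes from unoperated muscle differed between times after surgery by the edgeR quasi-likelihood test in 17 cases, given here as log2 differences. Between 30 and 10 days these were Fbxo32 (-3.27), Fbxo31 (-1.04), Traf6 (-0.93) and Nedd4 (-0.48). Between 60 and 30 days they were Fbxo31 (-1.48), Fbxo30 (-0.94), Nedd4 (-0.88), Trim32 (-0.27) and Mdm2 (0.40). Between 60 and 10 days they were Fbxo32 (-3.30), Fbxo31 (-2.52), Nedd4 (-1.36), Fbxo30 (-1.01), Traf6 (-0.88), Trim63 (-0.59), Trim32 (-0.26) and Mdm2 (0.41).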

How the results depend on the processing

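Of the 60 log2 fold changes of the 10 ligases, 54 to 60 kept their direction and side of the threshold under each alternative other than library totals, and none of those alternatives turned a called value round. A sign change between values that were not called was not counted. With library totals 40 of 60 kept both. The reversed values were Trim54 at 10, 30 and 60 days (0.55, 0.43, 0.30), Trim32 at 10 and 30 days (0.37, 0.21) and Nedd4 at 60 days (0.40). Among the genes named from the lists and as nearest patterns they were Cops5 (0.049), Cul1 (0.41) and Ubb (0.36) at 10 days, Ubb (0.022) and Ubr4 (0.11) at 30 days, and Ubr4 (0.023) at 60 days. The main values came from TMM factors, and the alternative removes these by construction. Of 1344 counts over the lists, 39 moved over 1.5 times. The count of ligases called was 3 between 60 and 30 days when only those 2 groups were fitted, against 5, and leaving out a library gave 7 to 8, 7, 6, 4 to 6, 3 to 5 and 6 to 8 for 10, 30 and 60 against 0, 30 against 10, 60 against 30 and 60 against 10 days, and 7 to 9 in the joint test.

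For the ratios, group medians gave 0.79, -1.93 and -1.94 for Fbxo32 to Trim63, -0.92 for Trim54 to Trim63 at 10 days and 3.79 and 2.63 for Fbxo30 to Fbxo32 at 30 and 60 days (adjusted p = 0.0735 for each, exact permutation). Swapping the lowest library of the higher group with the highest of the lower group leaves both medians as they were. Medians of 4 libraries against 4 therefore could not pass the threshold, and their p-values say nothing about these differences. Leaving out a library gave 0.71 to 1.10, -2.01 to -1.62 and -2.01 to -1.62 for Fbxo32 to Trim63, -1.08 to -0.80 for Trim54 to Trim63 at 10 days, and 3.54 to 3.90 and 2.58 to 2.97 for Fbxo30 to Fbxo32. Column suffixes gave no sign of pairing the libraries: same-suffix deviations had a mean correlation of 0.0013 (-0.24 to 0.22). This has no reference to be set against, so it does not exclude that some libraries share a rat or a batch. With the suffix as a replicate block, 8, 7, 6, 6, 4 and 8 ligases were called in the 6 comparisons and 9 jointly. Trim63 and Cblb were then called lower from 10 to 30 days and Trim32 not from 30 to 60 days. The paired ratio differences were 0.96, -1.76, -1.76, -0.97, 3.67 and 2.84 (adjusted p = 0.161, exact sign flips). With 4 pairs the smallest two-sided p is 0.125, so the design could not pass the threshold and this test says nothing about these differences. The 60-day libraries are the shallowest. Thinning every library to the smallest total ended 1 call, that of Cblb at 10 days (adjusted p = 0.0738).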
